A study of Mus musculus with 6 samples.

Results

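The 41 genes described here encode lysosomal hydrolases, their helper proteins, lysosomal membrane proteins and the regulators Tfeb and Grn. They were chosen by symbol from a table of 28450 genes measured in mouse liver, and all 41 were found. The mice were 3 male Acsm3 knockouts and 3 male wild-type controls, all 12 weeks old and fed a normal diet. Which part of Acsm3 was removed, whether it was lost in every cell or in a cell type, and whether the controls were littermates are not stated in the labels. Liver poly(A) RNA was sequenced, and the values are FPKM, fragments scaled to transcript length and to the mapped total of each library.

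Lysosomes are acidic organelles in which proteases, glycosidases, sulfatases, lipases and phosphatases break down material delivered by endocytosis, phagocytosis and autophagy. Most luminal enzymes receive a mannose 6-phosphate tag that carries them there, and a proton pump, the vacuolar ATPase, keeps the lumen acidic. Tfeb and its relatives can switch on many lysosomal genes together by binding the CLEAR element, an E-box sequence in their promoters. In liver, both hepatocytes and macrophages are rich in lysosomes, so whole-tissue levels add up several cell types.

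Part of this gene set was higher in knockout livers, and none was lower, except Ctsh and Gaa after median-ratio rescaling. Of the 40 members that could be tested, 12 rose and 0 fell at an adjusted p of 0.05 in limma, which is 30.0% of them, while 13.9% of all 10996 tested genes rose and 2.61% fell. The 12 were the proteases Lgmn, Ctsd, Ctsl and Ctsb, the glycosidases Gusb and Man2b1, the sulfatases Galns and Arsb, and the lipid-handling genes Ppt1, Asah1, Psap and Lipa. Their knockout-to-control ratios of mean FPKM ran between 1.36 and 2.20. The other 28 tested members did not pass, including all 5 membrane proteins and both regulators. Unadjusted p was under 0.05 for 20 of the 40 members and for 3887 of the 10996 genes.

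Fold changes are knockout minus control on the log2(FPKM + 1) scale with their standard error, and they understate the change of genes with low levels. The median over all tested genes was 0.13, and the median over the 40 members was 0.24, which is 0.11 above it. A positive value was found for 35 of the 40 members and for 71.2% of all tested genes, and 27 members lay above the median of all genes. Every knockout value exceeded every control value in 20 members, 12 of them called, against 33.9% of all tested genes. In 1 member, Ctsh, every knockout value lay below the controls, against 7.91% of all tested genes. Two-sided p-values set the group difference against the spread within the groups of these 6 animals, which limma moderates over all tested genes. An exact permutation test of 3 against 3 cannot go below 0.10.

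**Figure D1:**
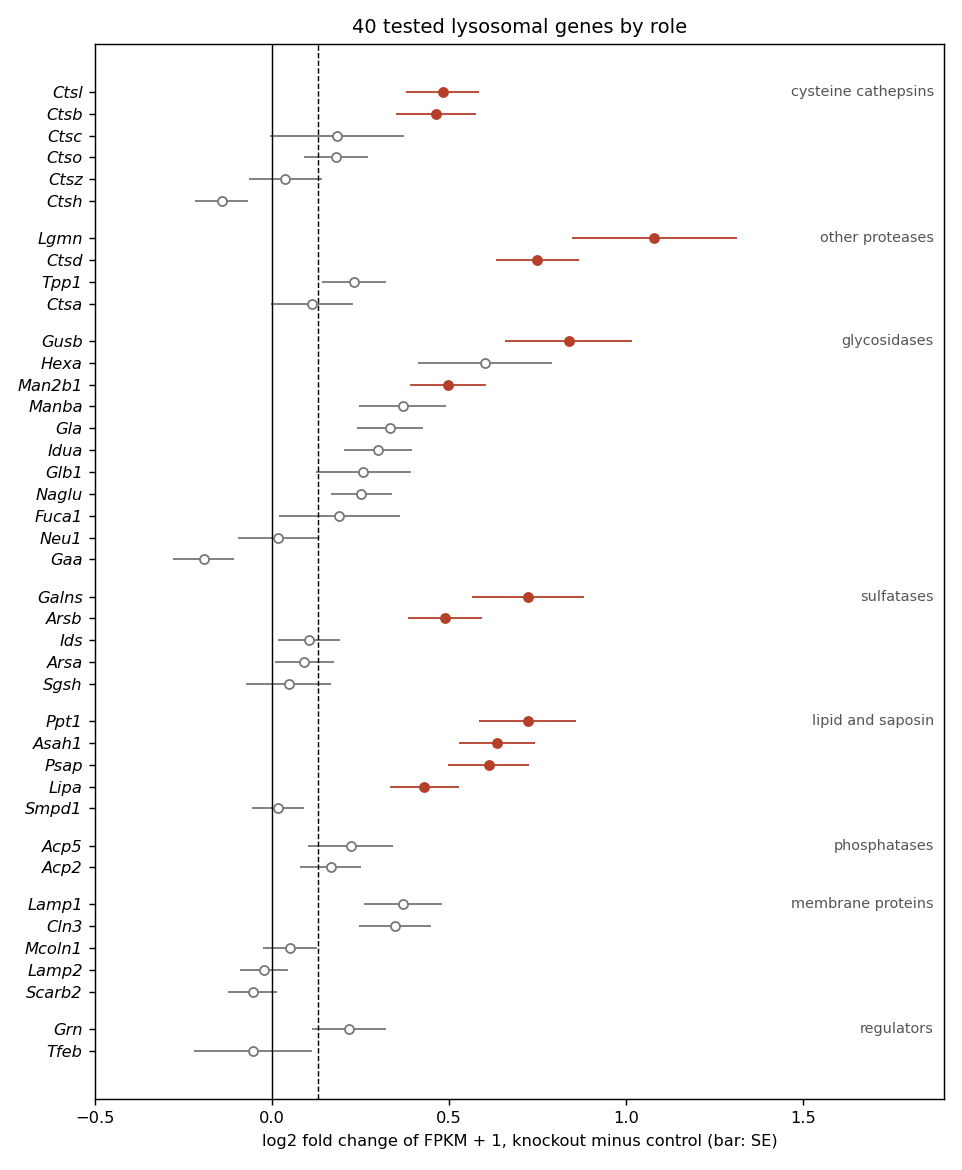
Log2 fold change (knockout minus control, x axis) of the 40 tested lysosomal genes by role, with bars for the SE and filled red points for the 12 that passed; the dashed line is the median of all tested genes, 0.13. Filled points lie among proteases, glycosidases, sulfatases and lipid genes, and every membrane protein and regulator is open; after median-ratio rescaling the call stayed for 6 of the 12, and 12 open points to the right of 0 lay to its left.

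The calls depended on scaling, on the filter and on single mice. After median-ratio rescaling between libraries, 6 members rose and 2 fell, where 6.61% of all tested genes rose and 8.39% fell. These factors came from all genes above 0 in every mouse; with factors from genes of at least 1 FPKM, a choice made after the first result was seen, 8 members rose and 2 fell, against 7.57% and 6.7% of all tested genes. After quantile normalization, 11 members rose and 0 fell, against 6.84% and 5.48% of all genes. Lgmn, Gusb, Ctsd, Ppt1, Asah1 and Psap passed under every scaling tried. With no filter on low values and p-values adjusted over 26129 genes, Asah1 (limma adjusted p = 0.0446) and Ctsd (limma adjusted p = 0.0414) alone passed, and the other 10, Lgmn, Gusb, Ppt1 and Psap among them, had adjusted p between 0.0563 and 0.0836. With no filter, 2.08% of all tested genes were called higher. Leaving out knockout 1, 2 or 3 gave 1, 0 and 16 member calls, beside 3.71%, 2.28% and 17.9% of all tested genes called higher. Leaving out control 1, 2 or 3 gave 3, 1 and 0 member calls, beside 4.92%, 2.44% and 2.04% of all tested genes. No call among the 12 survived the loss of every mouse in turn. All 12 stayed without knockout 3; Ctsd also stayed without knockout 1 or control 1, Asah1 without control 1 and Ppt1 without control 2. No called member changed sign under any alternative.

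**Figure D2:**
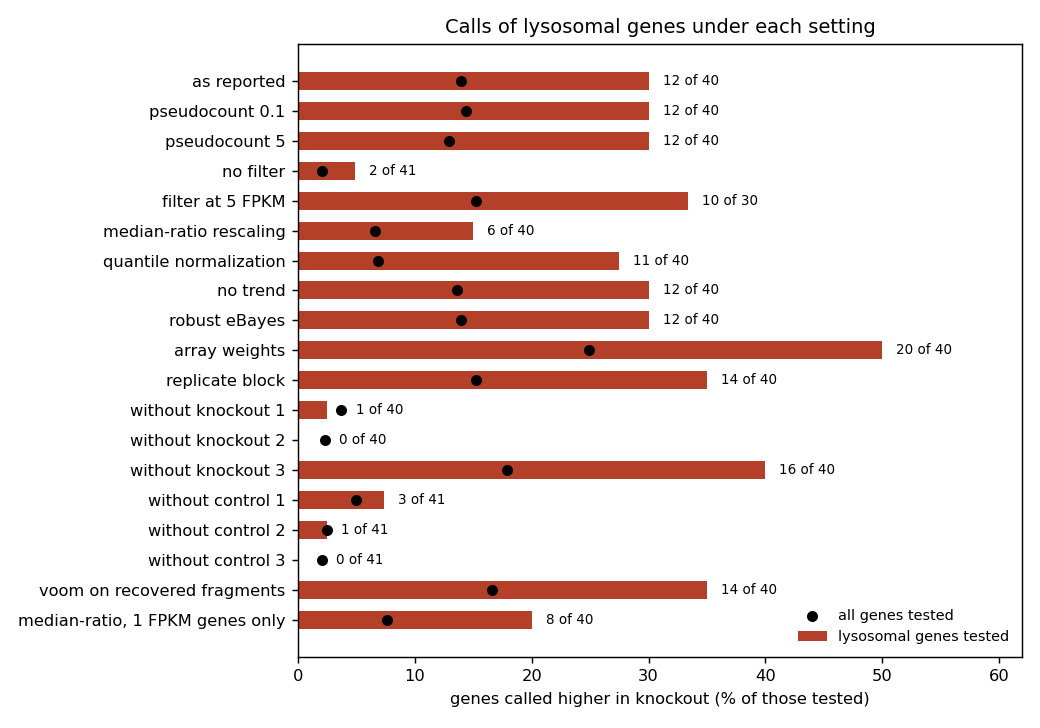
Share of tested lysosomal genes called higher in knockout livers (bars, with counts) and of all tested genes (black points) under each setting. The bar stands at 12 of 40 as reported, at 6 of 40 after median-ratio rescaling, and at 0 where knockout 2 or control 3 was left out. The points stand at 13.9% as reported, 6.61% after median-ratio rescaling, 2.28% without knockout 2 and 2.04% without control 3.

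The knockout label held for the targeted gene: Acsm3, on chromosome 7, had 0.668, 2.92 and 1.08 FPKM in knockout livers 1 to 3, against 33.2, 34.4 and 32.2 FPKM in control livers. Estimated depth was between 15360000 and 16270000 fragments per library, or 30.7 to 32.5 fragments for a 2 kb transcript at 1 FPKM. Knockout 3 lay nearest to the controls on the first principal component, which held 56.1% of the variance. It was also the lowest of the 3 knockouts for 33 of the 41 members. Summed over hepatocyte markers, FPKM were 29916 to 32993 in knockouts against 40640 to 48138 in controls; of the 8, Alb and Ttr fell, and Hnf4a and Tf rose, but after median-ratio rescaling neither rose and Asgr1 also fell, and after quantile normalization Hnf4a alone passed.

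Together the 41 genes made up 2276, 2312 and 1956 FPKM in the knockout livers, against 1786, 1724 and 1594 FPKM in the control livers. The means were 2181 ± 196 FPKM in knockouts and 1701 ± 97.9 FPKM in controls (SD, n = 3 each), a ratio of 1.28, and every knockout lay above every control. The 5 members with the highest means, Psap, Lamp1, Ctsz, Ctsb and Ctsd, held 51.7% of this sum in knockouts and 49.0% in controls. Member means over the 6 mice ran between 0.995 and 275 FPKM, with 8 members at 100 FPKM or more, 18 between 10 and 100, and 15 below 10.

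**Figure D3:**
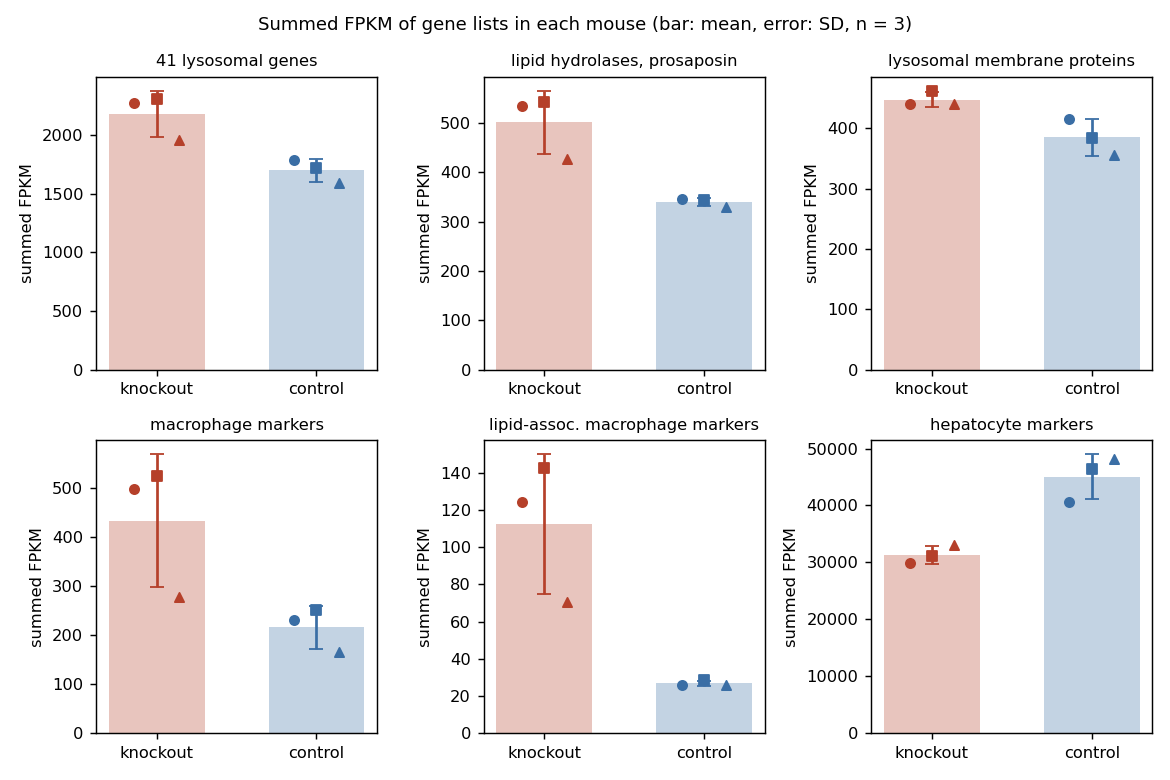
Summed FPKM per mouse (points; circle, square and triangle are mice 1, 2 and 3) of the 41 lysosomal genes, 2 of their role groups and 3 marker lists, with bars for the mean and SD (n = 3). Knockout sums exceed control sums for the lysosomal genes, the lipid group, the membrane proteins and the macrophage lists. The hepatocyte marker sum runs the other way, though Hnf4a and Tf among these markers rose before rescaling.

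Summed general and lipid-associated macrophage markers were also higher in knockout livers, while resident Kupffer cell markers were mixed. Of 11 general macrophage markers, 6 rose, beside 13.9% of all tested genes. The 11 summed to 498, 526 and 278 FPKM in knockouts, against 231, 251 and 165 FPKM in controls. All 8 markers of lipid-associated macrophages rose, with sums of 125, 143 and 70.5 FPKM in knockouts against 26.1, 28.4 and 25.7 FPKM in controls; 5 of the 8 averaged under 1 FPKM in controls and passed the filter on low values only through the knockouts. Among 7 resident Kupffer cell markers, Cd5l rose while Timd4, Fcna and Cd163 fell. Clec4f, Vsig4 and Marco did not pass, though Marco fell after either rescaling. The 7 summed to 326, 339 and 188 FPKM in knockouts, against 191, 212 and 150 FPKM in controls, and these ranges overlapped. Of the other lists, 3 of 3 tested monocyte, 3 of 4 neutrophil, 5 of 6 stellate, 2 of 6 endothelial and 1 of 3 erythroid markers rose, no T, NK, B or cholangiocyte marker was tested, and Ly6g was listed at 0 in all 6 libraries. The neutrophil markers S100a8, Csf3r and Retnlg, the monocyte markers Ccr2 and Cx3cr1 and the stellate marker Col1a1 likewise averaged under 1 FPKM in controls and were tested only because of the knockouts, so the counts over these lists are descriptions. After median-ratio rescaling, 4 general macrophage, 8 lipid-associated, 2 monocyte, 1 neutrophil, 3 stellate, 2 endothelial and 0 erythroid markers rose, beside 6.61% of all tested genes. After quantile normalization these numbers were 3, 8, 3, 2, 3, 2 and 0, in the same order, beside 6.84% of all tested genes. Both macrophage sums and the lysosomal sum were lowest among knockouts in knockout 3. So were the resident Kupffer cell, monocyte, neutrophil, stellate and endothelial sums, so this low was not particular to macrophages. Erythroid and hepatocyte marker sums were highest there. The part of these cells in the lysosomal result was not tested, and in whole liver fewer or more cells of a type cannot be told apart from less or more RNA per cell.

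The E-box core CACGTG was present in promoters of every role group but the phosphatases, the lipid genes and the regulators. RefSeq promoter windows of GRCm38.p6, from 250 bases before to 50 bases after a start site, were matched for 36 of the 41 members; Asah1, Ctsb, Ctse, Ctsh and Galns had no match. CACGTG, searched on both strands, occurred in 13 of the 36 members (36.1%), in 8.09% of all 27025 genes with a window and in 12.2% of the 8019 tested genes with one. The longer TCACGTG, which contains CACGTG and is the core of the CLEAR element, occurred in 12 of the 36 (33.3%), in 4.29% of all genes and in 7.37% of tested genes. Within the set, CACGTG occurred in 3 of 9 members that rose (33.3%) and in 10 of 27 others (37.0%). These are descriptions of letters in a window, not of binding.

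A set of 4 windows is shown in lower case, with CACGTG in capitals together with a T before it or an A after it: Lgmn and Ctsd had the largest fold changes among members with the core, Lamp1 had the most copies, and Mcoln1 had a pair of copies and no call.
Lgmn promoter (chr12:102439043-102439342, minus strand): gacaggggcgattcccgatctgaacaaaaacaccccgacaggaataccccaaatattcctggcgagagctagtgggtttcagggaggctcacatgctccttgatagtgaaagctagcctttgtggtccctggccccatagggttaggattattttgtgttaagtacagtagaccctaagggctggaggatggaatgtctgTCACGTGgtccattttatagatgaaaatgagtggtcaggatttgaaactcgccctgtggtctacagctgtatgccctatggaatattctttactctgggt
Ctsd promoter (chr7:142387778-142388077, minus strand): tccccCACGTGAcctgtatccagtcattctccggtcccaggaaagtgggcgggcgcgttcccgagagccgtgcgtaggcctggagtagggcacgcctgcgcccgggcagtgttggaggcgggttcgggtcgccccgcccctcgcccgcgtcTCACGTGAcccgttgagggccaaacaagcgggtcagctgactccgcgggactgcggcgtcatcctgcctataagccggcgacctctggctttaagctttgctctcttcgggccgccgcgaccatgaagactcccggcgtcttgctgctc
Lamp1 promoter (chr8:13158911-13159210, plus strand): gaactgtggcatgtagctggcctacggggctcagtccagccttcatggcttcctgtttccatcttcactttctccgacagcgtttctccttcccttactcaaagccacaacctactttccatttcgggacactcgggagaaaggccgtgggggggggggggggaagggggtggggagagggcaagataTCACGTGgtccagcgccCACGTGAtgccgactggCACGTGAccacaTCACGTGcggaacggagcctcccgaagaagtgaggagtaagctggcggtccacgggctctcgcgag
Mcoln1 promoter (chr8:3500269-3500568, plus strand): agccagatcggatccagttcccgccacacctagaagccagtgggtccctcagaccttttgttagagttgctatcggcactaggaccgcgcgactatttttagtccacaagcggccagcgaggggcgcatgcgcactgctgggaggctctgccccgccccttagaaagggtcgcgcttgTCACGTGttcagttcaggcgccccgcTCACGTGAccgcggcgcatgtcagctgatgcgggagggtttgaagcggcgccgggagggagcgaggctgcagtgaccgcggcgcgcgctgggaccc
The Lgmn window belongs to the downstream one of its 2 RefSeq starts, and the other window held no core. Lamp1 carried 4 copies, centred 58, 42, 25 and 12 bases before its start.

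**Figure D4:**
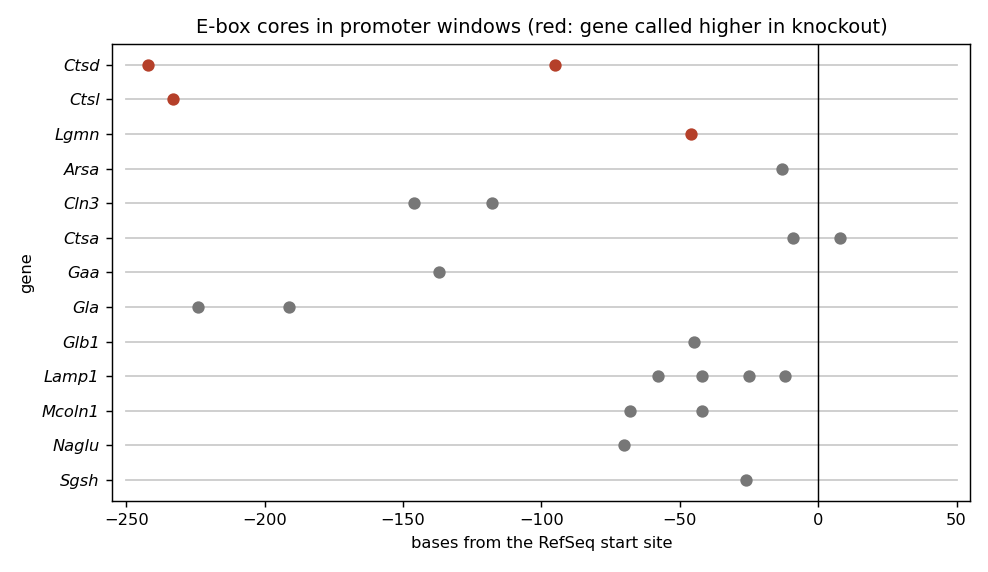
Position of each CACGTG (points, in bases from the RefSeq start site at 0) in the 13 lysosomal genes that hold one; red points mark Ctsd, Ctsl and Lgmn, called higher in knockouts, though Ctsl lost its call after median-ratio rescaling. Of 21 copies, 13 lie within 100 bases before the start.

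Cysteine cathepsins are proteases with a cysteine in the active site, and 2 of the 6 rose (33.3%), beside 13.9% of all tested genes. Ctsb (ENSMUSG00000021939, chromosome 14, 63122462 to 63145923, plus strand; all gene positions are GRCm38), an abundant endopeptidase, had 175, 172 and 139 FPKM in the 3 knockout livers, against 121, 122 and 107 FPKM in the 3 control livers. The groups did not overlap, and the fold change was 0.46 ± 0.11 (limma adjusted p = 0.0382). Ctsl (ENSMUSG00000021477, chromosome 13, 64359337 to 64370890, minus strand), another endopeptidase, had 136, 109.8 and 115 FPKM in the knockouts and 81.5, 83.0 and 92.3 FPKM in the controls, a fold change of 0.48 ± 0.10 (limma adjusted p = 0.0287). Knockout 1 was the highest for Ctsl, whereas for Ctsb it was nearly level with knockout 2 and knockout 3 was the lowest. Both calls were lost after median-ratio rescaling, at limma adjusted p of 0.110 for Ctsb and 0.149 for Ctsl, and both stayed after quantile normalization. When 1 mouse was left out, limma adjusted p reached 0.126 without knockout 2 for Ctsb and 0.0917 without control 2 for Ctsl.

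Ctsz, a carboxypeptidase and the most abundant gene of this group that did not pass, had 179.6, 198 and 182 FPKM in the 3 knockout livers, against 201, 187 and 159 FPKM in the 3 control livers. The groups overlapped, with the highest and the lowest value both in controls, at a fold change of 0.04 ± 0.10 (limma adjusted p = 0.830) that turned to -0.18 after median-ratio rescaling. Ctsh, an aminopeptidase, had 50.7, 51.2 and 49.0 FPKM in the knockouts and 59.6, 52.2 and 55.3 FPKM in the controls. Every knockout lay below every control, but the fold change of -0.14 ± 0.07 did not pass (limma adjusted p = 0.218); after median-ratio rescaling it was -0.35 and passed (limma adjusted p = 0.0379). Ctsc, the dipeptidyl peptidase that activates granule serine proteases, and Ctso, a less studied family member, had fold changes of 0.18 ± 0.19 and 0.18 ± 0.09 with overlapping groups, and both were just below 0 after median-ratio rescaling, at -0.02 and -0.02.

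Of the other proteases, Lgmn had the largest fold change of all 40 tested members. Lgmn (ENSMUSG00000021190, chromosome 12, 102394084 to 102439813, minus strand) encodes legumain, an asparaginyl endopeptidase that processes other cathepsins, and had 76.7, 78.8 and 44.7 FPKM in the 3 knockout livers, against 29.8, 35.5 and 25.6 FPKM in the 3 control livers. Knockout 3 was the lowest of its group yet above every control, and the fold change was 1.08 ± 0.23 (limma adjusted p = 0.0294), a ratio of 2.20. Ctsd (ENSMUSG00000007891, chromosome 7, 142375911 to 142388038, minus strand), the main aspartic protease of lysosomes, had 163, 168 and 127 FPKM in the knockouts and 93.1, 91.4 and 85.2 FPKM in the controls. It had the smallest adjusted p among members, 0.0146 in limma, at a fold change of 0.75 ± 0.12. With 1 mouse left out, adjusted p reached 0.0951 without knockout 2 for Lgmn and 0.0573 without control 3 for Ctsd. The Ctsd call stayed in 15 of 18 alternatives, the most of any member. In the GENCODE M21 annotation, 34.4% of the exon bases of Ctsd are shared with a same-strand gene, Gm49369.

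Ctsa, the carboxypeptidase that protects Glb1 and Neu1, had 45.0, 48.3 and 39.0 FPKM in the 3 knockout livers, against 40.4, 45.7 and 36.2 FPKM in the 3 control livers. The groups overlapped at a fold change of 0.11 ± 0.12 (limma adjusted p = 0.529), which was -0.10 after median-ratio rescaling. Tpp1, a tripeptidyl peptidase lost in a childhood ceroid lipofuscinosis, had knockout values just above the controls and a fold change of 0.23 ± 0.09 (limma adjusted p = 0.120). Ctse, an aspartic protease of immune cells and the stomach, averaged 0.995 FPKM over the 6 mice and was below the filter of 1 FPKM, so it was not tested. It had 1.17, 1.55 and 1.13 FPKM in the knockouts and 0.560, 0.757 and 0.803 FPKM in the controls, which are 29 to 75 fragments per library, and the groups did not overlap. Each of the 40 tested members averaged over 1 FPKM in the controls alone.

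Glycosidases trim sugars from glycoproteins, glycolipids and glycosaminoglycans, and 2 of the 11 rose, a share of 18.2% beside 13.9% of all tested genes. Gusb (ENSMUSG00000025534, chromosome 5, 129989011 to 130003049, minus strand), which removes glucuronic acid, had 14.3, 14.7 and 9.12 FPKM in the 3 knockout livers, against 6.43, 7.29 and 5.88 FPKM in the 3 control livers. Knockout 3 again lay closest to the controls without overlap, and the fold change was 0.84 ± 0.18 (limma adjusted p = 0.0289). Man2b1 (ENSMUSG00000005142, chromosome 8, 85083270 to 85098282, plus strand), an alpha-mannosidase, had 25.5, 24.0 and 20.5 FPKM in the knockouts and 16.7, 17.4 and 14.6 FPKM in the controls. Its groups did not overlap, and its fold change was 0.50 ± 0.11 (limma adjusted p = 0.0295). The call was lost after median-ratio rescaling (limma adjusted p = 0.0543). It stayed with the added factors from genes of at least 1 FPKM and after quantile normalization. Leaving out 1 mouse took adjusted p to 0.0933 without knockout 2 for Gusb and 0.0994 without knockout 2 for Man2b1.

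Hexa, the alpha subunit of the hexosaminidase that degrades GM2 ganglioside, had 55.5, 53.7 and 37.8 FPKM in the 3 knockout livers, against 33.4, 36.8 and 25.3 FPKM in the 3 control livers. The groups did not overlap, but its fold change of 0.60 ± 0.19 did not pass (limma adjusted p = 0.0712), with knockout 3 close to control 2. Another 4 glycosidases had knockout values above every control without a pass. Manba, a beta-mannosidase, stood at 0.37 ± 0.12, and Gla, which degrades globotriaosylceramide, at 0.33 ± 0.09. Idua, which acts on heparan and dermatan sulfate, stood at 0.30 ± 0.10, and Naglu, which acts on heparan sulfate, at 0.25 ± 0.09. Their limma adjusted p lay between 0.0542 for Gla and 0.0848 for Naglu.

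Groups overlapped for Glb1, the beta-galactosidase of GM1 ganglioside, at 0.26 ± 0.13, for Fuca1, which removes fucose, at 0.19 ± 0.17, and for Neu1, the lysosomal sialidase, at 0.02 ± 0.11. After median-ratio rescaling Fuca1 was at -0.02 and Neu1 at -0.18. Gaa, the enzyme that breaks down lysosomal glycogen, had the lowest fold change of the set. It had 25.0, 21.7 and 22.0 FPKM in the knockouts and 24.4, 28.0 and 26.5 FPKM in the controls. Knockout 1 lay within the control range, and the fold change of -0.19 ± 0.09 did not pass (limma adjusted p = 0.163); after median-ratio rescaling it was -0.40 and passed (limma adjusted p = 0.0351).

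Sulfatases remove sulfate from glycosaminoglycans and sulfolipids. Of the 5, 2 rose, both at low levels, beside 13.9% of all tested genes. The median fold change of the 5 was 0.10, below the median of 0.13 over all tested genes. Galns (ENSMUSG00000015027, chromosome 8, 122578242 to 122611463, minus strand), which acts on keratan sulfate and chondroitin 6-sulfate, had 3.73, 3.99 and 2.99 FPKM in the 3 knockout livers, against 1.22, 2.14 and 1.99 FPKM in the 3 control livers. These values rest on 53 to 163 fragments per library, and control 1 was the lowest of all. The fold change was 0.72 ± 0.16 (limma adjusted p = 0.0304). Arsb (ENSMUSG00000042082, chromosome 13, 93771630 to 93943016, plus strand), which acts on dermatan sulfate, had 3.68, 4.54 and 3.88 FPKM in the knockouts and 2.84, 2.67 and 2.26 FPKM in the controls and a fold change of 0.49 ± 0.10 (limma adjusted p = 0.0288). Both calls were lost after median-ratio rescaling (limma adjusted p = 0.0528 for Galns and 0.0717 for Arsb) and after quantile normalization (limma adjusted p = 0.0746 for Galns and 0.107 for Arsb). With the added factors from genes of at least 1 FPKM, Galns passed and Arsb did not. With 1 mouse left out, limma adjusted p reached 0.103 without knockout 2 for Galns and 0.0955 without knockout 2 for Arsb.

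Arsa, the sulfatase of sulfatide and the most abundant of the 5, had 26.3, 24.2 and 24.2 FPKM in the 3 knockout livers, against 25.3, 23.2 and 21.6 FPKM in the 3 control livers. The ranges overlapped, and the fold change of 0.09 ± 0.08 turned to -0.11 after median-ratio rescaling. Ids, which acts on heparan and dermatan sulfate, stood at 0.10 ± 0.09 and Sgsh, which acts on heparan sulfate, at 0.05 ± 0.12; both were below 0 after either rescaling.

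Lipid hydrolases and prosaposin gave the highest share of calls, with 4 of 5 higher, beside 13.9% of all tested genes. After median-ratio rescaling Psap, Asah1 and Ppt1 kept their calls and Lipa did not, beside 6.61% of all tested genes called higher. Psap (ENSMUSG00000004207, chromosome 10, 60277627 to 60302597, plus strand) encodes the precursor of the saposins, small proteins that present sphingolipids to their enzymes, and was the most abundant member. It had 359, 363 and 280.0 FPKM in the 3 knockout livers, against 222, 217 and 211 FPKM in the 3 control livers, and the 3 controls lay close together below all knockouts. The fold change was 0.61 ± 0.11 (limma adjusted p = 0.0216). Asah1 (ENSMUSG00000031591, chromosome 8, 41340197 to 41374773, minus strand), the acid ceramidase, had 19.7, 21.2 and 16.1 FPKM in the knockouts and 12.0, 12.0 and 11.4 FPKM in the controls, with a fold change of 0.63 ± 0.11 (limma adjusted p = 0.0172). Again the controls were tightly grouped and the knockouts stood apart. With 1 mouse left out, adjusted p reached 0.0768 without knockout 2 for Psap and 0.0650 without control 3 for Asah1.

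Ppt1 (ENSMUSG00000028657, chromosome 4, 122836242 to 122859175, plus strand), which removes palmitate from proteins, had 12.7, 13.7 and 11.2 FPKM in the 3 knockout livers, against 7.14, 8.68 and 5.92 FPKM in the 3 control livers. The groups did not overlap, and the fold change was 0.72 ± 0.14 (limma adjusted p = 0.0226). Lipa (ENSMUSG00000024781, chromosome 19, 34492318 to 34527474, minus strand), the acid lipase that releases cholesterol and fatty acids from endocytosed lipids, had 127, 128 and 105 FPKM in the knockouts and 87.3, 91.4 and 86.4 FPKM in the controls. Its fold change of 0.43 ± 0.10 passed (limma adjusted p = 0.0325). The call was lost after median-ratio rescaling (limma adjusted p = 0.138) and stayed after quantile normalization. With 1 mouse left out, adjusted p reached 0.0812 without knockout 2 for Ppt1 and 0.107 without knockout 2 for Lipa. Smpd1, the acid sphingomyelinase, did not pass. It had 16.1, 16.4 and 16.4 FPKM in the knockouts and 17.3, 15.3 and 15.7 FPKM in the controls, a fold change of 0.02 ± 0.07 (limma adjusted p = 0.895) that was -0.19 after median-ratio rescaling.

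**Figure D5:**
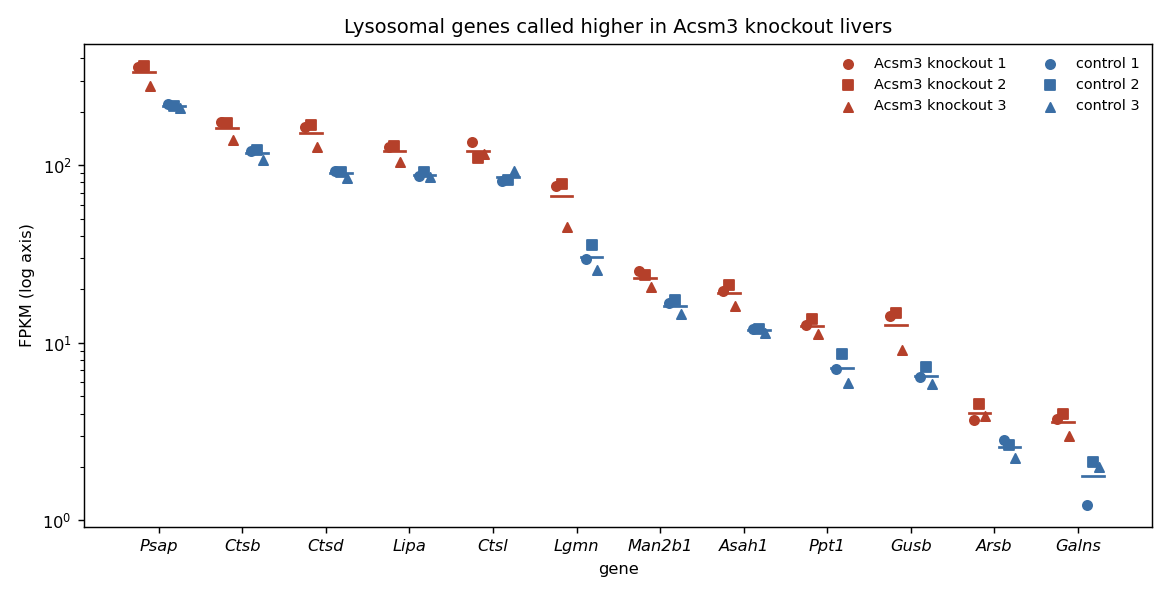
FPKM (log axis) of the 12 lysosomal genes called higher, in each knockout (red) and control (blue) liver, with lines at the group means. No gene has a knockout point below a control point, and knockout 3 is the lowest knockout for 10 of the 12; 6 of the 12 calls were lost after median-ratio rescaling.

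Neither acid phosphatase passed. Acp5, the tartrate-resistant phosphatase of osteoclasts and macrophages, had 55.2, 59.6 and 47.6 FPKM in the 3 knockout livers, against 53.0, 43.6 and 42.3 FPKM in the 3 control livers. Control 1 lay within the knockout range, and the fold change was 0.22 ± 0.12 (limma adjusted p = 0.236). Acp2, the lysosomal acid phosphatase, stood at 0.17 ± 0.09 with overlapping groups, and at -0.03 after median-ratio rescaling.

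None of the 5 membrane proteins passed. Lamp1, a heavily glycosylated protein that lines the lysosomal membrane, had 290.2, 308 and 279.8 FPKM in the 3 knockout livers, against 259, 224 and 199 FPKM in the 3 control livers. The groups did not overlap, and the fold change of 0.37 ± 0.11 missed the threshold (limma adjusted p = 0.0632) but passed after quantile normalization (limma adjusted p = 0.0486). After median-ratio rescaling it was 0.16 (limma adjusted p = 0.370). Lamp2, its relative needed for autophagosome fusion and chaperone-mediated autophagy, had 103, 103 and 112 FPKM in the knockouts and 106, 109.8 and 107 FPKM in the controls. Lamp2 levels overlapped fully, at a fold change of -0.02 ± 0.07 (limma adjusted p = 0.829), and at -0.24 after median-ratio rescaling (limma adjusted p = 0.181) or 0.0013 after quantile normalization.

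Scarb2, the receptor that carries glucocerebrosidase to lysosomes, had 39.0, 43.4 and 42.4 FPKM in the 3 knockout livers, against 43.1, 43.0 and 43.6 FPKM in the 3 control livers and a fold change of -0.06 ± 0.07 (limma adjusted p = 0.603). Knockouts 1 and 3 lay below the narrow control range, and knockout 2 lay within it. Cln3, a membrane protein lost in juvenile ceroid lipofuscinosis, had 3.60, 3.15 and 2.73 FPKM in the knockouts and 2.39, 2.28 and 2.11 FPKM in the controls. All its knockouts lay above the controls, and the fold change was 0.35 ± 0.10 (limma adjusted p = 0.0605). Mcoln1, a lysosomal cation channel whose promoter is printed above, stood at 0.05 ± 0.08 with overlapping groups, and at -0.12 after median-ratio rescaling.

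Neither regulator passed. Tfeb, the transcription factor that acts on the CLEAR element, had 2.11, 1.43 and 1.07 FPKM in the 3 knockout livers, against 1.86, 1.60 and 1.35 FPKM in the 3 control livers. Knockouts spread wider than controls on both sides, and the fold change was -0.05 ± 0.17 (limma adjusted p = 0.846). These are mRNA levels, and Tfeb is largely controlled by where its protein sits in the cell. Grn, which encodes progranulin, a secreted protein that supports lysosomal enzymes, had 105, 111 and 88.2 FPKM in the knockouts and 92.3, 81.7 and 86.5 FPKM in the controls. Knockout 3 lay within the control range, and the fold change was 0.22 ± 0.10 (limma adjusted p = 0.190). After median-ratio rescaling the fold change was -0.19 for Tfeb and 0.0040 for Grn, and, among the genes above, -0.26 for Scarb2, 0.19 for Cln3 and 0.012 for Acp5, and none of these 5 passed.

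Lysosomal genes outside the set gave no call in the lower direction, except Lamtor4 after median-ratio rescaling or quantile normalization. Of 32 tested other hydrolases and luminal proteins, 5 rose and 0 fell, among them the cysteine protease Ctss (1.40 ± 0.23), the thiol reductase Ifi30 (1.16 ± 0.28), the cholesterol carrier Npc2 (0.46 ± 0.10) and Smpdl3a (0.37 ± 0.10). Of 26 tested other membrane proteins, 8 rose and 0 fell, led by Gpnmb (3.19 ± 0.34), Cd63 (1.97 ± 0.29), Laptm5 (1.35 ± 0.22) and Slc29a3 (0.58 ± 0.14). Gpnmb is also one of the lipid-associated macrophage markers above.

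Of 18 tested vacuolar ATPase genes, 6 rose and 0 fell, with Atp6v0d2 at 1.47 ± 0.25, Atp6v1b2 at 0.68 ± 0.13, Atp6v1a at 0.37 ± 0.09 and Atp6v0e at 0.29 ± 0.08. Of 16 genes of mannose 6-phosphate tagging and sorting, 3 rose: the tagging enzyme Gnptab (0.53 ± 0.10), the receptor Igf2r (0.44 ± 0.11) and the adaptor Ap1g1 (0.29 ± 0.07). Of 16 tested genes for Tfeb relatives and mTORC1 at the lysosome, 2 rose, Rragd (0.82 ± 0.19) and Lamtor3 (0.40 ± 0.10). After median-ratio rescaling the numbers that rose in these 5 lists were 3, 4, 2, 0 and 1, in the order given, beside 6.61% of all tested genes. After quantile normalization they were 3, 5, 2, 0 and 0, beside 6.84% of all tested genes. The shares that rose, with no rescaling, were 15.6%, 30.8%, 33.3%, 18.8% and 12.5%, beside 13.9% of all tested genes. Some genes of these lists averaged under 1 FPKM in controls and entered the test through the knockouts. They include Gpnmb and Atp6v0d2, which rose, and Ctsk, Tpcn2 and Sort1, which did not pass. List medians were 0.06, 0.07, 0.07, 0.04 and 0.06 above the median of all tested genes.

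Exons shared with neighbours limit some of these values. Ctsd shares part of its exon bases with a gene on the same strand, which strand cannot separate. The pairs below lie on opposite strands, and the labels do not say whether counting used strand. Besides Ctsd, Ctsb shares 12.8% of its exon bases with Fdft1 on the opposite strand, which averaged 7.15 FPKM in knockouts and 12.4 FPKM in controls. Ctsa shares 10.5% with Pltp, at 34.7 FPKM in knockouts and 23.0 FPKM in controls. The called gene Ppt1 shares 3.51% with Cap1, at 35.3 FPKM in knockouts and 27.2 FPKM in controls. Idua, at 2.72 FPKM in knockouts and 2.03 FPKM in controls, shares 3.35% with Slc26a1, at 44.1 and 41.6 FPKM. Ctsl shares 26.9% with the antisense gene Gm47123 and Arsb 32.3% with Gm26527, neither of which has a value here.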

How the data were processed

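Liver RNA of 3 Acsm3 knockout and 3 control mice was poly(A)-selected and sequenced, per the labels' protocols. The authors' deposited values are FPKM, held in 1 table of 28450 genes by 6 libraries. Per the submitters' processing notes, the tools were HISAT2 2.0.4, Bowtie2 2.2.6 and StringTie 1.3.0 and the build was GRCm38; settings and role of each tool are not stated. Depth was estimated from FPKM and GENCODE M21 exon lengths for the 27170 genes at the same position, where 99.6 to 99.7% of values under 20 fragments came within 0.1 of a whole number.

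On log2(FPKM + 1), every gene averaging at least 1 FPKM entered a limma fit (version 3.58.1, R 4.3.3), with a trended variance, no block, and Benjamini-Hochberg adjustment over 10996 genes at 0.05. The code was tested on simulated data. Groups follow the labels' genotype. The members, gene lists and tests were chosen with earlier results of these data known. A member is given in each mouse where it passed, where its fold change was among the 5 largest or 5 smallest, or where it was the most abundant of its role that did not pass with overlapping groups; of each other list, up to 4 passing genes are named by fold change, and any further gene or member given in each mouse was picked with its values known.

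Alternatives changed the pseudocount, filter, scaling, variance model, array weights, replicate block and each mouse in turn. Added after seeing the data were voom on recovered fragments and a second median-ratio rescaling. Median-ratio factors were first taken from all genes above 0 in every mouse, as is usual for that method; restricting them to genes of at least 1 FPKM was tried after that result was seen, gives more member calls, and is reported as the added version only. Promoter windows are RefSeq's for GRCm38.p6, and exon overlaps come from GENCODE M21. The values of 1 gene outside the 41 are not reported here.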

Additional observations from a re-analysis of the deposited data

How the results depend on the processing

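Of 710 member values over 18 alternatives, 573 kept their direction and side of the threshold, 78 kept direction but no longer passed, 22 newly passed and 37 changed sign, none of these in a called member. Members called higher numbered 12 at a pseudocount of 0.1 or 5, without a trend and with robust variances, 10 with a 5 FPKM filter, 2 with no filter, 11 after quantile normalization, 20 with array weights and 14 by voom. Median-ratio rescaling with factors from all genes above 0 gave 6 higher and 2 lower, and with factors from genes of at least 1 FPKM, tried after that was seen, 8 higher and 2 lower. Leaving out 1 mouse gave 0 to 16 higher, lowest without knockout 2 or control 3 and highest without knockout 3; control or knockout groups of 2 mice then rest on the pooled spread. Over all genes, 1532 rose and 287 fell as reported, against 544 and 106 with no filter, 848 higher with a 5 FPKM filter, 724 and 919 after median-ratio rescaling, 830 and 735 with the restricted factors, 752 and 603 after quantile normalization, 2742 and 537 with array weights, and 226 to 1968 higher and 55 to 282 lower with 1 mouse left out. The cause was not tested, except that fewer mice were fitted.

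The replicate block gave 14 members higher and 0 lower, adding Cln3 and Hexa, and 1672 genes higher and 346 lower. Same-numbered mice deviated together with correlations of 0.111, 0.0918 and 0.187, and each correlated best with its own number. The labels give the numbers no meaning, and whether same-numbered mice share a litter or batch was not tested.

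Values that changed sign belong to members that did not pass. Median-ratio rescaling gave -0.034 for Acp2, -0.12 for Mcoln1, -0.097 for Sgsh, -0.18 for Neu1, -0.18 for Ctsz, -0.097 for Ctsa, -0.11 for Arsa, -0.021 for Ctso, -0.015 for Fuca1, -0.019 for Ctsc, -0.075 for Ids and -0.19 for Smpd1. With the restricted factors these were -0.082 for Mcoln1, -0.065 for Sgsh, -0.14 for Neu1, -0.13 for Ctsz, -0.049 for Ctsa, -0.067 for Arsa, -0.034 for Ids and -0.14 for Smpd1. Quantile normalization gave -0.13 for Mcoln1, -0.16 for Sgsh, -0.11 for Neu1, 0.0013 for Lamp2, -0.0038 for Arsa, -0.055 for Ids and -0.11 for Smpd1. Leaving out 1 mouse moved the fold change between -0.035 (without knockout 1) and 0.15 (without knockout 3) for Sgsh, between -0.062 (without control 3) and 0.11 (without knockout 3) for Neu1, between -0.057 (without control 3) and 0.11 (without control 1) for Ctsz, between -0.21 (without knockout 1) and 0.083 (without knockout 3) for Tfeb and between -0.018 (without control 2) and 0.066 (without control 1) for Smpd1. Some members under 5 FPKM rest on few fragments, down to 53 for Galns and 29 for Ctse, which limits their precision. Mcoln1, also under 5 FPKM, rests on 444 to 527 fragments per library. Ctse, tested with no filter, stood at 0.42 (limma adjusted p = 0.120).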
